A study of Bos taurus with 30 samples.

Results

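The mesenchymal identity regulators described here are 10 genes that the annotation columns of the deposited tables name ZEB1, ZEB2, TWIST1, TWIST2, SNAI2, PRRX1, TBX18, TCF21, CDH2 and CDH11. They were taken by gene symbol, and the list was made with earlier results of these data known. ZEB2 was paired with 2 gene IDs, so the 10 genes gave 11 gene IDs of the 27607 that were counted. RNA was sequenced from primary bovine endometrial cells after 72 h under flow in a microfluidic device, with stromal cells under and epithelial cells above a porous membrane. In the glucose experiment the medium held 5 mM or 50 mM glucose. In the insulin experiment it held vehicle (acetic acid in phosphate-buffered saline), 1 ng/mL or 10 ng/mL insulin, all with 5 mM glucose. Each of the 10 groups of cell type and condition had 3 biological replicates, giving 30 libraries. Cells were taken from uteri of nonpregnant cows early in the luteal phase and are enriched populations, not clones.

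ZEB1, ZEB2 and SNAI2 are zinc finger transcription factors that bind E-box motifs and repress epithelial genes such as the adhesion gene CDH1. TWIST1, TWIST2 and TCF21 are basic helix-loop-helix (bHLH) factors, and PRRX1 and TBX18 are homeobox and T-box factors, all of mesenchymal lineages. CDH2 (N-cadherin) and CDH11 (OB-cadherin) are calcium-dependent adhesion proteins of mesenchymal cells. In the endometrium, the stroma is a fibroblast tissue under a polarised epithelium, and loss of epithelial traits with gain of such factors is known as epithelial to mesenchymal transition (EMT).

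The labelled cell types were checked against marker genes before the members were compared. Libraries held 8826470 to 16647701 counted reads, and levels are given as CPM, that is, reads of a gene relative to all counted reads of its library. Where a gene had 0 reads, the limit is taken as 3 reads, or 0.18 to 0.34 CPM depending on the library, for counting error only. Stromal fibroblast markers in epithelial libraries had a median of 1.62% to 11.2% of their stromal level in the insulin experiment and 2.49% to 13.2% in the glucose experiment. Epithelial markers in stromal libraries had a median of 0% to 3.72% of their epithelial level in the insulin experiment. In the glucose experiment 1 stromal library stood apart: at 50 mM, replicate 3 held epithelial markers at 64.4% of their epithelial level and stromal markers at 51.0% of their stromal level. Epithelial markers in the other stromal glucose libraries had medians of 0.0167% to 13.9%. All 17 matched epithelial and 18 stromal markers had reads in at least some libraries of each cell type. Of the other cell type markers, 8 of 9 endothelial, 5 of 10 immune and 9 of 9 smooth muscle and pericyte genes were matched. Summed endothelial markers reached 109 CPM in epithelial and 29.1 CPM in stromal libraries. VWF had 15.4 to 76.1 CPM and EMCN 1.26 to 83.7 CPM in epithelial libraries, and at most 18.0 and 7.80 CPM in stromal ones. PECAM1 reached at most 2.83 CPM in any library. TEK and CDH5 went the other way from VWF and EMCN. They reached 2.36 and 1.08 CPM in stromal and 0.895 and 0.188 CPM in epithelial libraries. Summed immune markers reached 428 and 187 CPM. Most of the immune sum was LCP1, an actin-bundling gene, at 152 to 425 CPM in epithelial libraries. CD163 and CSF1R reached more in stromal libraries (3.94 and 3.79 CPM) than in epithelial ones (0.532 and 0.333 CPM). Smooth muscle and pericyte markers summed to 996 to 4742 CPM in stromal and 43.8 to 421 CPM in epithelial libraries, with ACTG2 and DES (smooth muscle actin and desmin) among the larger ones and MYH11 (smooth muscle myosin) at most 14.4 CPM. Not every gene of that list was mainly stromal. MYOCD went the other way: epithelial libraries ran from 19.0 to 72.2 CPM, whereas its stromal range was 1.15 to 20.0 CPM. RGS5 was low in both cell types, at no more than 5.25 CPM in any library. In these bulk samples, fewer cells of a type and less RNA per cell cannot be told apart.

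Which cell type carries these genes was asked first. In the insulin vehicle, 10 of the 11 gene IDs were higher in stromal than in epithelial cells and none was lower, where 27.3% of all genes tested were called higher in stromal cells. The count was 11 of 11 at 1 ng/mL (29.3% of all genes), 11 of 11 at 10 ng/mL (27.3%), 10 of 11 at 5 mM glucose (10.6%) and 11 of 11 at 50 mM glucose (10.9%). The gene ID that missed the call in the vehicle and at 5 mM was CDH2. A gene was called when edgeR's quasi-likelihood test, with the replicate number as a block and Benjamini-Hochberg adjustment over all genes tested, gave an adjusted p under 0.05 and the log2 fold change was beyond 0.1. The median log2 fold change of the 11 gene IDs was 4.01, 3.94 and 4.16 in the 3 insulin conditions, 3.87 at 5 mM and 2.83 at 50 mM glucose, while the median over all genes lay between -0.03 and 0.01. Without replicate 1, none of the 11 was called at 50 mM glucose, where 0% of all genes were called higher in stromal cells, although all 11 log2 fold changes remained above 0 (1.25 to 3.52), and the smallest edgeR adjusted p lay just over the threshold of 0.05. Without replicate 3, which holds the stromal library with epithelial markers at 64.4%, 11 of 11 were called at 50 mM (14.8% of all genes) with a median of 2.95.

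**Figure D1:**
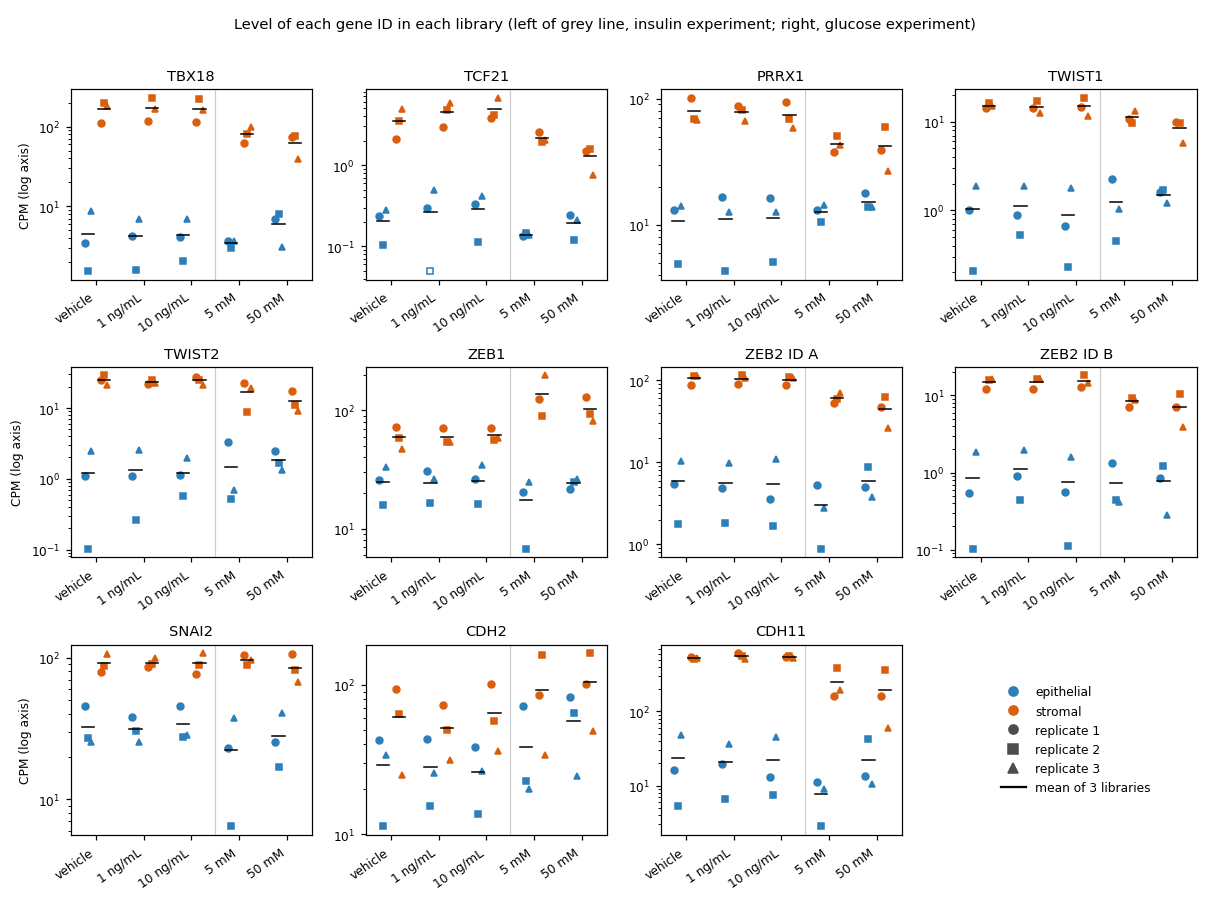
Level (CPM, log axis) of each gene ID in each of the 30 libraries, by condition, with epithelial libraries in blue, stromal libraries in orange, symbols for the replicate number and bars for the mean of 3 libraries. ZEB2 ID A is ENSBTAG00000012615 and ID B is ENSBTAG00000048810, and the open TCF21 symbol is a library with 0 reads drawn at 0.05 CPM. Stromal libraries lie above epithelial ones for all genes but CDH2, for which they overlap.

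The lineage factors TBX18, TCF21 and PRRX1 were all higher in stromal cells. TBX18 (ENSBTAG00000018161), a T-box factor of mesenchyme and mural cell lineages, had 3.45, 1.55 and 8.63 CPM in the epithelial vehicle libraries (replicates 1 to 3) and 111, 200 and 182 CPM in the stromal ones. Every stromal library was above every epithelial one, and replicate 1 was lowest in stromal cells at each insulin dose (111, 118 and 113 CPM). The log2 fold change of TBX18 in the vehicle was 5.37 ± 0.532 (SE, n = 3 against 3, edgeR adjusted p = 0.0021), the largest of the 10 genes there. In the glucose experiment TBX18 had 62.6, 79.7 and 99.9 CPM in stromal cells at 5 mM, with a log2 fold change of 4.75 ± 0.368 (edgeR adjusted p = 0.00543), and 3.57 ± 0.183 at 50 mM (edgeR adjusted p = 0.00159).

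TCF21 (ENSBTAG00000021827), a bHLH factor of fibroblast lineages, was the rarest of the group by reads. It had 24, 38 and 45 reads in the stromal vehicle libraries (2.10, 3.44 and 4.88 CPM) against 3, 1 and 3 in the epithelial ones. Over the 15 epithelial libraries its count was 0 to 5, so its epithelial level lay near the limit of 3 counts and had little precision. In the vehicle it differed by a log2 fold change of 4.01 ± 0.456 (edgeR adjusted p = 0.0028). Summed over the 3 libraries, 107 stromal against 7 epithelial reads gave a ratio of 16.0 per counted read, with a 95% counting interval of 7.48 to 40.6. At 5 mM glucose its log2 fold change was 4.09 ± 0.608 and at 50 mM 2.83 ± 0.555 (edgeR adjusted p = 0.00874 and 0.0295), and the call at 50 mM was also lost without replicate 2 (edgeR adjusted p = 0.0685).

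PRRX1 (ENSBTAG00000004570), a paired-related homeobox factor of limb and craniofacial mesenchyme, had 13.2, 4.86 and 14.2 CPM in epithelial and 101, 68.6 and 68.2 CPM in stromal vehicle libraries. The groups did not overlap, and the log2 fold change was 3.04 ± 0.304 (edgeR adjusted p = 0.00213). At 5 mM glucose the stromal level was 37.6, 50.2 and 42.9 CPM and the log2 fold change 2.00 ± 0.331 (edgeR adjusted p = 0.0115), and at 50 mM it was 1.56 ± 0.268 (edgeR adjusted p = 0.0211). In epithelial cells PRRX1 had 10.4 to 17.9 CPM over the 6 glucose libraries, at 141 to 292 reads.

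The TWIST factors were low in epithelial cells. TWIST1 (ENSBTAG00000046922) had 1.02, 0.207 and 1.88 CPM in epithelial and 14.3, 16.3 and 15.0 CPM in stromal vehicle libraries, a log2 fold change of 3.99 ± 0.515 (edgeR adjusted p = 0.0038). The lowest epithelial value rested on 2 reads. TWIST2 (ENSBTAG00000021444) had 1.10, 0.103 and 2.44 CPM in epithelial and 25.2, 28.8 and 21.3 CPM in stromal vehicle libraries, a log2 fold change of 4.49 ± 0.643 (edgeR adjusted p = 0.00496). For both, replicate 2 was the lowest and replicate 3 the highest of the epithelial libraries at each insulin dose. That order is also the order of the stromal fibroblast markers, whose medians were 1.62% in replicate 2, 4.33% in replicate 1 and 11.2% in replicate 3 of the epithelial vehicle libraries, and its part in the result was not tested. At 5 mM glucose the log2 fold changes were 3.60 ± 0.573 for TWIST1 and 4.03 ± 0.551 for TWIST2 (edgeR adjusted p = 0.0103 and 0.00738), and at 50 mM they were 2.64 ± 0.262 and 2.92 ± 0.226 (edgeR adjusted p = 0.00401 and 0.00215).

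The zinc finger repressors fell into different sizes of difference. ZEB2 (ENSBTAG00000012615) had 5.41, 1.76 and 10.4 CPM in epithelial and 88.2, 113 and 114 CPM in stromal vehicle libraries, a log2 fold change of 4.39 ± 0.503 (edgeR adjusted p = 0.00285). Its other gene ID (ENSBTAG00000048810) had fewer reads, with 12.0, 15.9 and 16.6 CPM in stromal cells and a log2 fold change of 4.32 ± 0.572 (edgeR adjusted p = 0.00406). The first ID held 6.01 to 7.95 times the reads of the second in each of the 15 stromal libraries (median 6.88), and the 2 IDs may divide the reads of a single gene, so they were not taken as independent. At 5 mM glucose the log2 fold change was 4.82 ± 0.604 for the first and 3.87 ± 0.615 for the second ID (edgeR adjusted p = 0.00635 and 0.0102), and at 50 mM it was 3.09 ± 0.214 and 3.38 ± 0.293 (edgeR adjusted p = 0.00181 and 0.00278).

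ZEB1 (ENSBTAG00000020053) had a smaller difference in the insulin experiment, with 26.0, 15.8 and 33.2 CPM in epithelial and 71.98, 58.1 and 47.5 CPM in stromal vehicle libraries. The groups did not overlap, and the log2 fold change was 1.36 ± 0.261 (edgeR adjusted p = 0.0115, and 0.0744 without replicate 1). In the glucose experiment its level at 5 mM was 20.6, 6.82 and 24.7 CPM in epithelial and 123, 88.6 and 196 CPM in stromal libraries. There it differed by 3.30 ± 0.362 (edgeR adjusted p = 0.00543) and at 50 mM it was 2.18 ± 0.266 (edgeR adjusted p = 0.00715). Whether the libraries of the 2 experiments were sequenced together is not stated, and the difference between the experiments was not tested.

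SNAI2 (Slug, ENSBTAG00000013227) had 45.2, 27.2 and 25.4 CPM in epithelial and 79.7, 87.3 and 106 CPM in stromal vehicle libraries, a log2 fold change of 1.59 ± 0.311 (edgeR adjusted p = 0.0121). At 10 ng/mL insulin it was 1.56 ± 0.304 (edgeR adjusted p = 0.0126), a call that was lost without replicate 2 (adjusted p = 0.0519) or without replicate 3 (adjusted p = 0.0549). Its epithelial level was 25.4 to 45.8 CPM in all 9 insulin libraries, at 242 to 577 reads, and 6.45 to 40.9 CPM in the 6 glucose libraries. At 5 mM glucose the log2 fold change was 2.64 ± 0.517 and at 50 mM 1.84 ± 0.360 (edgeR adjusted p = 0.0182 and 0.0294).

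The cadherins differed in the size of the difference. CDH11 (ENSBTAG00000032092) had 16.3, 5.37 and 48.2 CPM in epithelial and 543, 511 and 531 CPM in stromal vehicle libraries, a log2 fold change of 5.04 ± 0.673 (edgeR adjusted p = 0.00414). Its 9 stromal insulin libraries lay within 511 to 609 CPM. The 6 stromal glucose libraries were more spread, with 163, 384 and 194 CPM at 5 mM and 160, 367 and 59.2 CPM at 50 mM, and the lowest was the library with epithelial markers at 64.4%. The log2 fold change of CDH11 was 5.26 ± 0.737 at 5 mM (edgeR adjusted p = 0.00774) and 3.23 ± 0.291 at 50 mM (edgeR adjusted p = 0.00304). With no replicate block the call at 50 mM was lost (3.31 ± 0.868, edgeR adjusted p = 0.0656).

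CDH2 (ENSBTAG00000021190) was expressed in both cell types and its replicates were widely spread. It had 42.5, 11.3 and 33.9 CPM in epithelial and 93.6, 63.5 and 24.9 CPM in stromal vehicle libraries, and in replicate 3 the epithelial value was the higher. The log2 fold change of CDH2 was 1.12 ± 0.559 in the vehicle, with a 95% interval of -0.35 to 2.59 and an edgeR adjusted p of 0.152. Without replicate 3 it was 1.78 ± 0.409 (edgeR adjusted p = 0.0354). It was called at 1 ng/mL (1.01 ± 0.253, edgeR adjusted p = 0.0182), at 10 ng/mL (1.39 ± 0.310, edgeR adjusted p = 0.0186) and at 50 mM glucose (1.03 ± 0.209, edgeR adjusted p = 0.0322), but not at 5 mM (1.46 ± 0.539, edgeR adjusted p = 0.120). With no replicate block the call at 1 ng/mL was lost (edgeR adjusted p = 0.0762), as was that at 50 mM (edgeR adjusted p = 0.323). Without replicate 1 the calls at 1 and 10 ng/mL were lost (edgeR adjusted p = 0.0731 and 0.0686), and that at 5 mM was gained (edgeR adjusted p = 0.00953), as it was in DESeq2 (adjusted p = 0.0307). The call at 50 mM was also lost without replicate 2 (edgeR adjusted p = 0.0728) and with library totals in place of TMM (edgeR adjusted p = 0.0522).

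**Figure D2:**
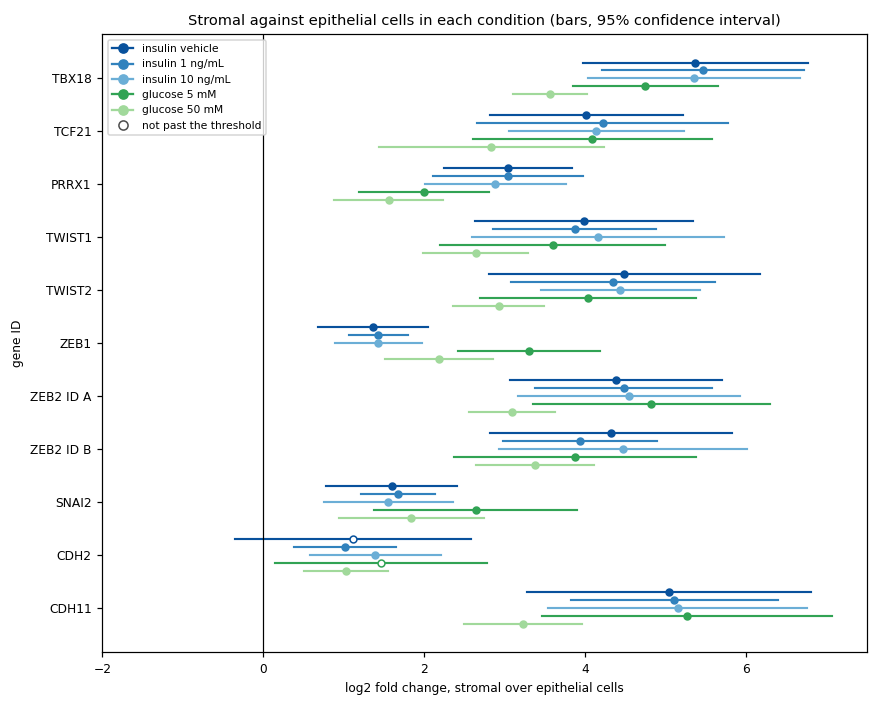
Log2 fold change of stromal over epithelial cells for each gene ID (rows) in the 5 conditions (colours), with 95% confidence intervals as bars and open symbols where the call was missed. All points lie above 0, from 1.01 for CDH2 at 1 ng/mL insulin to 5.46 for TBX18 at 1 ng/mL insulin, and only the CDH2 interval in the vehicle crosses 0.

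Because epithelial libraries held some stromal marker RNA, the level of each member in an epithelial library was set against the stromal library of the same condition and number. Over the 15 pairs, the 18 stromal fibroblast markers had an epithelial level whose median was 1.39% to 14.6% of the stromal level (median pair 5.83%). The members divided by this measure. TBX18 had 0.687% to 10.8% (median 3.72%) and CDH11 0.734% to 17.5% (median 4.62%), and they exceeded the stromal marker median of their own pair in 1 and 2 of 15 pairs. ZEB2 had a median of 6.13% for the first ID and 7.26% for the second and exceeded it in 7 and 8 pairs. TWIST2 had 5.89% (7 pairs), TWIST1 7.76% (12 pairs) and TCF21 7.60% (9 pairs).

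ZEB1, SNAI2, PRRX1 and CDH2 exceeded the stromal marker median in 15 of 15 pairs. ZEB1 had an epithelial level of 7.70% to 70.0% of its stromal level (median 30.6%), with 36.8% as the median of the 9 insulin pairs and 16.8% of the 6 glucose pairs. SNAI2 had 7.22% to 60.3% (median 30.7%). PRRX1 had 5.33% to 51.5% (median 20.8%), and its order by experiment was the opposite of that of ZEB1, with 17.3% in the insulin and 34.2% in the glucose pairs. CDH2 had 14.3% to 136% (median 50.3%), and stromal cells were the higher in 14 of its 15 pairs. The stromal markers themselves were not uniform: in the first vehicle pair single markers ran from 1.06% to 224%. The highest values of SNAI2, PRRX1, CDH11, TCF21 (27.7%), the first ZEB2 ID (14.7%) and the stromal marker median (14.6%) came from the 50 mM pair of replicate 3. Its stromal library held stromal markers at 51.0% of their stromal level and epithelial markers at 64.4% of their epithelial level. These percentages are a description without a test, and the part of stromal RNA in the epithelial values was not tested.

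**Figure D3:**
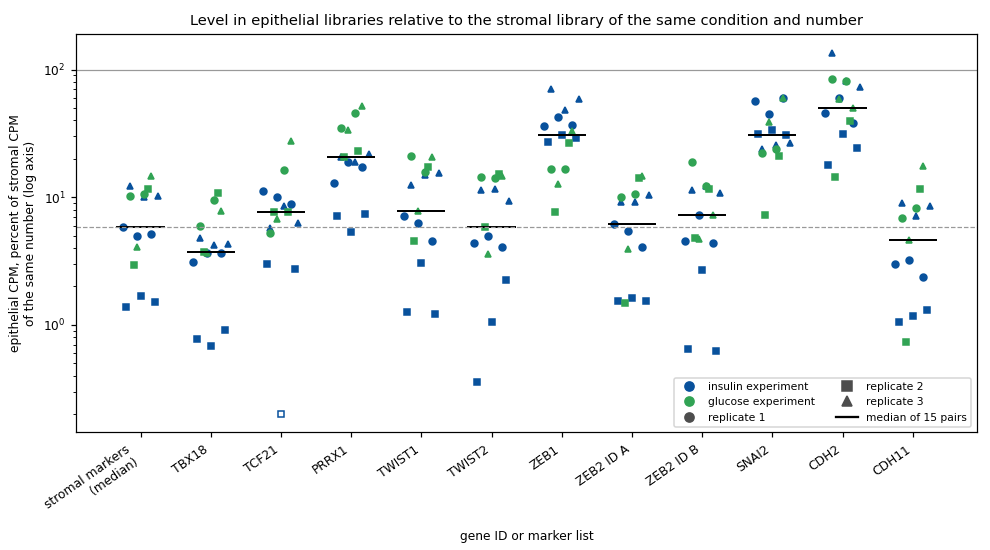
Level of each gene ID in an epithelial library as a percent of the stromal library of the same condition and replicate number (log axis), for 9 insulin (blue) and 6 glucose pairs (green), with the median of 15 pairs as a bar. The dashed line is the median pair of the stromal fibroblast markers (5.83%), the grey line is 100%, and the open symbol is a TCF21 pair at 0 drawn at 0.2%. ZEB1, SNAI2, PRRX1 and CDH2 lie higher than the other members.

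Genes of the same pathways were counted from lists in the vehicle comparison, where 27.3% of all genes tested were called higher in stromal cells and 27.8% lower. Of 29 other mesenchymal and EMT transcription factors with a gene ID, 22 passed the count filter and were tested. A gene can pass that filter through the 3 libraries of 1 cell type alone. Of the 22, 17 were higher in stromal cells, 1 was lower and 4 were not called, with a median log2 fold change of 2.89. The largest were HAND1 (9.42 ± 0.471) and HAND2 (6.501 ± 0.285), bHLH factors, then the forkhead factor FOXF2 (4.84 ± 0.724) and the Notch target HEYL (4.82 ± 0.265), with edgeR adjusted p of 0.000899, 0.000899, 0.00561 and 0.000914. HAND2 is known as a progesterone-regulated factor of the uterine stroma. SNAI1, the close relative of SNAI2, was at 2.36 ± 1.69 CPM (SD, n = 3) in epithelial and 15.6 ± 2.52 CPM in stromal cells (log2 fold change 2.88 ± 0.595, edgeR adjusted p = 0.0143). The exception that was lower in stromal cells was the homeobox factor MSX1 (-4.44), named after its value was seen.

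The epithelial genes known as repressed by ZEB or SNAI factors were on the other side. All 22 were lower in stromal cells (27.8% of all genes were called higher in epithelial cells), with a median log2 fold change of -6.38. CDH1, EPCAM, ESRP1, GRHL2, CLDN4, CLDN7 and RAB25 were also among the epithelial markers that checked the cell types. For these genes the result repeats that check. CDH1 (E-cadherin) had 546 ± 37.8 CPM in epithelial and 5.93 ± 9.53 CPM in stromal vehicle libraries (SD, n = 3), a log2 fold change of -7.76 ± 1.37 (edgeR adjusted p = 0.00902). Summed epithelial markers in these stromal libraries were 12.2, 363 and 5.96 CPM in replicates 1 to 3, and the part of replicate 2 in these levels was not tested. The tight junction gene CLDN4 had -7.99 ± 1.503, the adhesion gene EPCAM -7.35 ± 1.34 and the mucin MUC1 -7.22 ± 1.32 (edgeR adjusted p = 0.0108, 0.00994 and 0.00995). ESRP1, an epithelial splicing factor, had -6.53 ± 0.921, and the epithelial transcription factors GRHL2 and OVOL2, known to oppose ZEB1, had -6.34 ± 0.792 and -5.79 ± 0.772 (edgeR adjusted p = 0.00475, 0.00351 and 0.00413). ZEB1 at 15.8 to 33.2 CPM and SNAI2 at 25.4 to 45.2 CPM were counted in the same 3 epithelial libraries. At 50 mM glucose 5 of the 22 were called lower in stromal cells (median -2.22, and 6.39% of all genes), where the stromal library with epithelial markers at 64.4% is 1 of 3.

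The other cadherins and the catenins were more often called lower than higher in stromal cells. In the vehicle comparison 27.8% of all genes tested were called lower and 27.3% higher in stromal cells. Of 12 other cadherins with a gene ID, 7 passed the count filter in the vehicle, which a gene can pass through 1 cell type alone. Of these 7, 5 were lower in stromal cells, among them CDH17 (-8.43 ± 1.57) and CDH6 (-5.13 ± 0.329), while CDH13 (T-cadherin) was higher (6.57 ± 0.349) at edgeR adjusted p of 0.0105, 0.00105 and 0.000914. All 4 catenins tested, of 6 with a gene ID, were lower: CTNNA1 (-1.77 ± 0.126), CTNND1 (-1.68 ± 0.116), JUP (-1.63 ± 0.245) and CTNNB1 (-0.45 ± 0.129), at edgeR adjusted p of 0.0012, 0.00114, 0.00569 and 0.0367. Catenins link cadherins of either cell type to the cytoskeleton. Of 7 bHLH partners and inhibitors of TWIST and TCF21, 4 were higher in stromal cells and 1 lower. The lower one was the inhibitor ID4 (-0.82 ± 0.194, edgeR adjusted p = 0.0213), named after its value was seen. The higher ones were the E protein TCF4 (3.43 ± 0.420), the inhibitors ID3 (1.84 ± 0.0981) and ID1 (1.02 ± 0.222), and the E protein TCF12 (0.87 ± 0.107), with edgeR adjusted p of 0.00334, 0.000914, 0.0165 and 0.00337. Of 10 corepressors of ZEB and SNAI factors, none was higher and 6 were lower in stromal cells, led by RCOR1 (-1.36 ± 0.108), CTBP2 (-1.14 ± 0.0962), CTBP1 (-0.68 ± 0.0888) and HDAC1 (-0.68 ± 0.120), with edgeR adjusted p of 0.00139, 0.00155, 0.0039 and 0.00891. The cell type markers used in flow cytometry moved with their labels, with VIM (vimentin) at 2.63 ± 0.147 and KRT18 (keratin 18) at -7.78 ± 1.63 (edgeR adjusted p = 0.000936 and 0.0149).

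Whether high glucose changed these genes was asked in each cell type by comparing 50 mM with 5 mM. No member was called. In epithelial cells edgeR called 0 of 10 gene IDs tested (0% of all genes, and 1.55% at an unadjusted p under 0.05), 0 at an unadjusted p under 0.05. DESeq2 called 0 of 11 (0% of all genes), with 1 at an unadjusted p under 0.05 (1.66% of all genes). TCF21 was too low to be tested there. All 10 log2 fold changes were above 0, with a median of 0.64 (0.10 to 1.31), where 50.7% of all genes were above 0. CDH2 had the smallest p, with 72.4, 22.6 and 20.0 CPM at 5 mM and 82.4, 64.3 and 24.5 CPM at 50 mM. Its log2 fold change was 0.66 ± 0.319 (95% interval -0.13 to 1.45, edgeR adjusted p = 0.804).

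The epithelial differences lay mostly in replicate 2. On the log2 scale of CPM plus 0.5, the members' median ratio of 50 to 5 mM was 0.14 in pair 1, 1.31 in pair 2 and 0.15 in pair 3. CDH11 had 0.23, 3.69 and 0.20, and ZEB1 0.08, 1.79 and 0.09. The stromal fibroblast markers moved with them, at 0.13, 1.61 and 0.40, and the epithelial markers had 0.04, -0.67 and 0.13. The epithelial library at 5 mM in replicate 2 had the lowest stromal markers of the epithelial glucose libraries (2.49%) and epithelial markers at 121%. Without replicate 2 the median log2 fold change was 0.17 (-0.56 to 0.45), with 8 of 10 above 0 and CDH2 at 0.27 ± 0.0992 (edgeR adjusted p = 0.234).

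In stromal cells edgeR called 0 of 11 gene IDs (0% of all genes, and 4.87% at an unadjusted p under 0.05), with 0 at an unadjusted p under 0.05. DESeq2 called 199 of the 14608 genes that it gave an adjusted p (1.36%) but 0 of the 11 members, of which 0 had an unadjusted p under 0.05 (5.4% of all genes). Of the 11 log2 fold changes 10 were below 0 (median -0.44), and CDH2 was above it at 0.20. TCF21 had the smallest p, with 39, 31 and 33 reads at 5 mM and 24, 23 and 11 reads at 50 mM (2.54, 1.95 and 2.01 against 1.502, 1.57 and 0.759 CPM). The groups did not overlap, and its log2 fold change was -0.86 ± 0.334 (95% interval -1.77 to 0.05, edgeR adjusted p = 0.696). The difference lay mostly in replicate 3. The members' median log2 ratio was -0.02, 0.05 and -1.09 in pairs 1 to 3. That of the stromal fibroblast markers was 0.11, -0.12 and -1.52, and that of the epithelial markers 1.15, 4.06 and 7.76. The epithelial markers thus rose in each of the 3 pairs and not only in pair 3. Without replicate 3 the members' median log2 fold change was -0.07 and TCF21 was at -0.57 ± 0.327 (edgeR adjusted p = 0.784). CDH2 was the exception in pair 3, where its ratio was 0.51 while the other 10 gene IDs ran from -1.70 to -0.51.

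**Figure D4:**
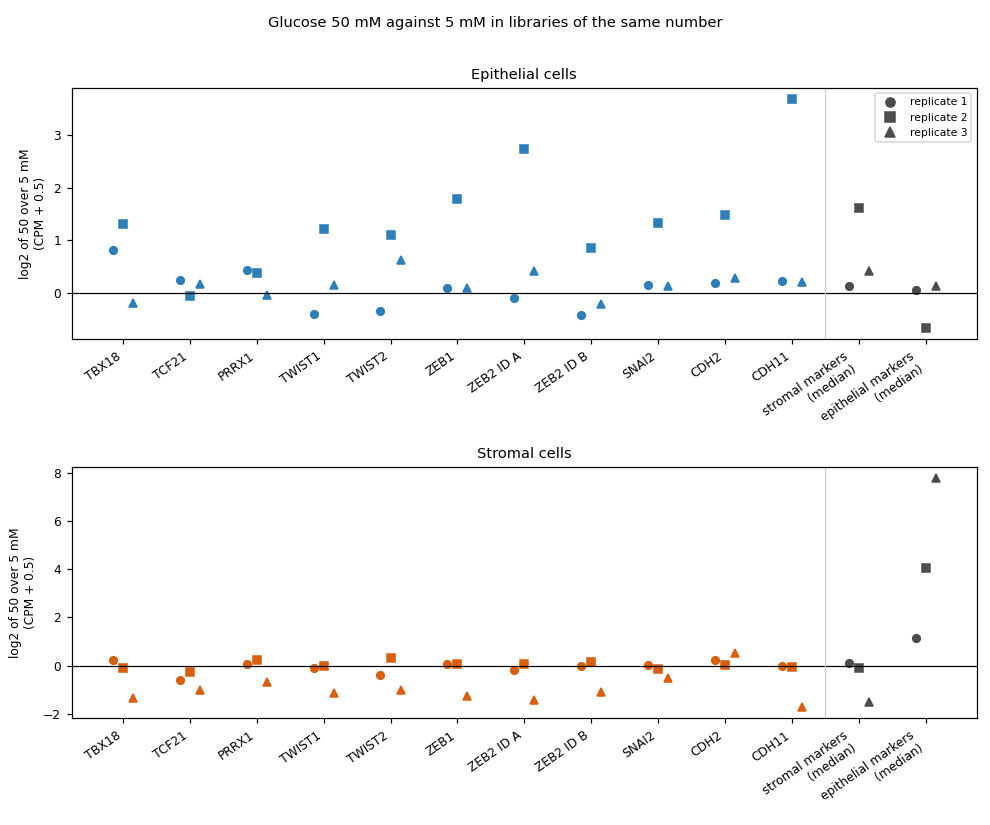
Log2 ratio of 50 mM over 5 mM glucose (CPM plus 0.5) in libraries of the same replicate number for each gene ID, in epithelial (top) and stromal cells (bottom), with the median ratios of the stromal and epithelial markers at the right in grey; the panels have different vertical scales. Replicate 2 is high for most members and for the stromal markers in epithelial cells, and replicate 3 is low for all but CDH2 in stromal cells. The epithelial markers in stromal cells are at 1.15, 4.06 and 7.76 in replicates 1 to 3.

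The glucose difference was compared between the cell types in a fit of all 12 libraries. edgeR called 0 of 11 gene IDs (0% of all genes, and 7.53% at an unadjusted p under 0.05), and 0 had an unadjusted p under 0.05. DESeq2 called 243 of the 13359 genes with an adjusted p (1.82%) but 0 of the 10 members that had one, and 3 of 11 had an unadjusted p under 0.05 (6.25% of all genes). All 11 differences, stromal minus epithelial, were below 0, with a median of -1.02 (-1.95 to -0.44) and a smallest edgeR adjusted p of 0.706. The libraries named above, with stromal markers at 51.0% in stromal replicate 3 and at 2.49% in epithelial replicate 2, enter this difference on the same side, and their part was not tested.

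No member was called with insulin at any dose in either cell type. The 3 comparisons in a cell type share libraries, so they are not independent. In epithelial cells edgeR called 0 of 9 gene IDs tested for 1 ng/mL against vehicle (0% of all genes), 0 of 8 for 10 ng/mL against vehicle (0.124%) and 0 of 8 for 10 against 1 ng/mL (0%). None of them had an unadjusted p under 0.05, where 2.95%, 6.96% and 4.44% of all genes did. DESeq2 called 0 of 11 in each (0% of all genes in each), also with 0 at an unadjusted p under 0.05 (0.0939%, 0.413% and 0.21% of all genes). TCF21 and the second ID of ZEB2 were too low to be tested, and at 10 ng/mL also TWIST1. The log2 fold changes lay between -0.16 and 0.12. The smallest p belonged to CDH11 at 1 ng/mL (-0.09 ± 0.111, edgeR adjusted p = 1.00), to CDH2 at 10 ng/mL (-0.16 ± 0.0884, edgeR adjusted p = 0.788) and to SNAI2 for 10 against 1 ng/mL (0.11 ± 0.0863, edgeR adjusted p = 0.983).

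In stromal cells edgeR called 0 of 11 gene IDs for 1 ng/mL against vehicle (0.0157% of all genes), for 10 ng/mL against vehicle (0%) and for 10 against 1 ng/mL (0.0313%), with 0, 1 and 1 at an unadjusted p under 0.05 (5.16%, 2.79% and 3.91% of all genes). DESeq2 called 0 of 11 in each (0.00529%, 0% and 0.0264% of all genes), with 0, 0 and 1 at an unadjusted p under 0.05 (0.476%, 0.121% and 0.539%). TCF21 was the gene with the smallest p against vehicle. It had 2.10, 3.44 and 4.88 CPM in the vehicle, 2.96, 4.75 and 5.81 CPM at 1 ng/mL and 3.78, 4.12 and 6.72 CPM at 10 ng/mL in replicates 1 to 3. Each replicate was higher with insulin than in its own vehicle, and the groups overlapped. Its log2 fold change was 0.41 ± 0.199 at 1 ng/mL (edgeR adjusted p = 0.917) and 0.52 ± 0.203 at 10 ng/mL (95% interval 0.06 to 0.98, edgeR adjusted p = 0.999). It rested on 24 to 72 reads per library.

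CDH2 had the smallest p between the doses. In stromal cells it had 93.6, 63.5 and 24.9 CPM in the vehicle, 72.7, 49.6 and 31.6 CPM at 1 ng/mL and 101, 56.8 and 35.8 CPM at 10 ng/mL. Replicate 1 was highest and replicate 3 lowest at each dose, and each replicate was higher at 10 than at 1 ng/mL, by 0.47, 0.19 and 0.18 on the log2 scale of CPM plus 0.5. In the same pairs the median ratio was 3.71, -0.31 and 1.39 for the epithelial markers and -0.12, 0.17 and 0.09 for the stromal fibroblast markers. In replicate 1 the epithelial markers summed to 10.3 CPM at 1 ng/mL and 318 CPM at 10 ng/mL, and their part was not tested. Over the 3 replicates the dose difference was 0.27 ± 0.0665 (95% interval 0.13 to 0.42, edgeR adjusted p = 0.566). With no filter on low counts it was 0.28 ± 0.0733 and was called (edgeR adjusted p = 0.0367) among 0.871% of all genes, whereas with no replicate block it was not. Against vehicle the directions were mixed, and without replicate 3 CDH2 was called lower at 1 ng/mL (-0.33 ± 0.0801, edgeR adjusted p = 0.0285) among 0.804% of all genes.

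**Figure D5:**
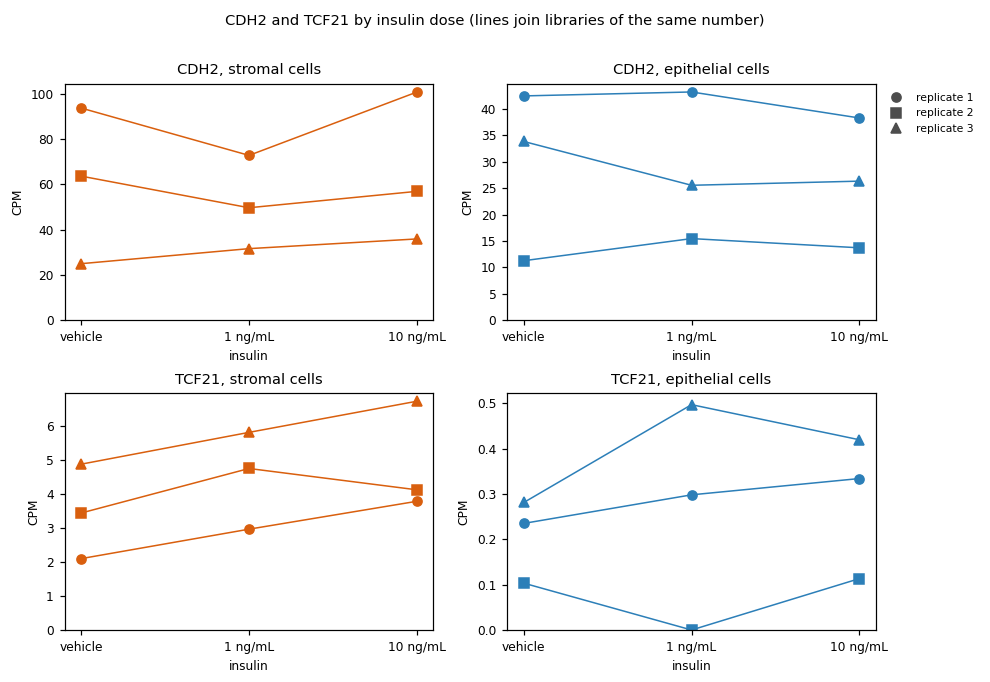
CDH2 and TCF21 (CPM) at each insulin dose in stromal and epithelial cells, with lines that join libraries of the same replicate number and a separate vertical scale from 0 in each panel. In stromal cells CDH2 is higher at 10 than at 1 ng/mL in 3 of 3 replicates, and replicate 1 is the highest and replicate 3 the lowest at each dose.

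The insulin differences were also compared between cell types. edgeR called 0 of 11 gene IDs for 1 ng/mL against vehicle (0.658% of all genes), 10 ng/mL against vehicle (0%) and 10 against 1 ng/mL (0.754%), with 0, 0 and 1 at an unadjusted p under 0.05 (6.78%, 4.05% and 6.83% of all genes). DESeq2 called 0 of the 10, 11 and 8 members with an adjusted p (0.248%, 0% and 0.679% of such genes), with 0, 0 and 1 of 11 at an unadjusted p under 0.05 (1.19%, 0.61% and 1.45% of all genes). In both tools this was CDH2, whose dose difference was 0.38 ± 0.105 larger in stromal than in epithelial cells (95% interval 0.16 to 0.61, edgeR adjusted p = 0.177). With no filter on low counts it was 0.40 ± 0.118 and was called (edgeR adjusted p = 0.0456) among 1.58% of all genes.

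Finally, the genes whose pattern was most like each member were taken over the 15 stromal libraries, as Pearson's r of log2(CPM + 1) after the mean of each experiment was removed. The 9617 genes compared were protein-coding with a symbol and a mean of at least 5 CPM, and r is a description, since libraries of the same number or experiment are not independent and differ in depth. CDH11 had the closest companions, ERCC4 (0.995), TMEM47 (0.991) and TTC28 (0.987). Without the stromal 50 mM library of replicate 3, which stood apart by its markers, these were 0.991, 0.979 and 0.972. CDH11 varied mainly over the 6 glucose libraries (59.2 to 384 CPM, against 511 to 609 CPM in the 9 insulin ones), so its r rests mainly on them. CDH2 was most like VGF (0.966), CTNNAL1 (0.952), a catenin-like gene, and EVC (0.935). ZEB1 was most like ZCCHC24 (0.940), PLAGL1 (0.921) and ISLR (0.916). ZEB2 was most like CMTM3 (0.971), CAVIN1 (0.956) and DLC1 (0.953) by its first ID, and ARHGEF17 (0.967), ANKS6 (0.962) and KCTD10 (0.948) by its second. The 2 IDs of ZEB2 shared none of these genes. Without that library the values of the first ID were 0.928, 0.878 and 0.865 and those of the second 0.932, 0.952 and 0.903.

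The other factors had companions of similar r. TWIST1 was nearest to P3H3 (0.967), the Hedgehog receptor gene SMO (0.941) and NRP1 (0.911), at 0.938, 0.898 and 0.839 without that library. TWIST2 was nearest to WWTR1 (0.946), which encodes the transcriptional coactivator TAZ, then DDX5 (0.944) and FBXO32 (0.912). SNAI2 was nearest to SRPX2 (0.956), CNNM2 (0.956) and COL8A2 (0.952), and PRRX1 to BSG (0.957), NXN (0.945) and KCNT2 (0.937). TBX18 was nearest to CPE (0.952), NEGR1 (0.940) and the Wnt antagonist DKK1 (0.940). TCF21, with the fewest reads, had the lowest values, STBD1 (0.882), LMCD1 (0.862) and CACFD1 (0.859), at 0.850, 0.828 and 0.835 without that library. For ZEB1, TWIST2, SNAI2, PRRX1, TBX18 and CDH2 the values without it lay between 0.898 (ZEB1 with ISLR) and 0.965 (CDH2 with VGF).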

How the data were processed

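The deposited tables hold raw counts of reads per gene that the authors made from 75 bp single-end stranded libraries: trimming with Cutadapt and fastq_quality_filter, unique alignments by Rsubread to the Ensembl release 96 cow genome, and featureCounts. Tool versions and the strand setting of the counting are not given in the sources used here, so reads of overlapping antisense genes may not be separable. Gene symbols and gene types came from the annotation columns that the authors deposited beside their DESeq2 results (17468 gene IDs). Those tables' fold changes and p-values were not used. No transcript lengths were used, so levels are compared within a gene and not between genes, and no sequence or genome position is given.

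Each comparison of 2 groups used its 6 libraries in edgeR 4.0.16 (limma 3.58.1, R 4.3.3): filterByExpr, TMM normalization, glmQLFit and glmQLFTest with the replicate number as a block, as the paper's methods describe a paired sample design, and Benjamini-Hochberg adjustment over all genes tested. Differences between cell types used 12 libraries, with the replicate number within cell type as block. SE is the log2 fold change divided by the root of F. After the mean of each group was removed, same-numbered libraries had r of 0.19 to 0.84 in treatment comparisons and 0.04 to 0.51 between cell types. Other numbers had -0.58 to 0.30 and -0.37 to 0.07, so the ranges overlap. Deviations within a group sum to 0, so a positive r for the same number goes with lower r for the others. In stromal cells, replicate 3 at 50 mM had r of 0.19 with its own number at 5 mM and 0.30 with replicate 1. CPM relates the reads of a gene to all counted reads of its library. Alternatives were DESeq2 1.42.0 (shares of genes called are over those given an adjusted p), other size factors, no filter, no replicate block and leaving out each replicate. The members and lists were chosen with earlier results of these data known. Named genes were all members between cell types, the member with the smallest p in each treatment comparison, and of each other list the 4 largest called changes in the vehicle plus SNAI1, CDH1, VIM, KRT18, ESRP1, GRHL2 and OVOL2. Whether same-numbered cells came from the same animal is not stated in the labels.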

Additional observations from a re-analysis of the deposited data

Results flagged for a closer look

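CDH11 was not called with glucose in either cell type, but the log2 ratio of 50 to 5 mM (CPM plus 0.5) was above 0 in each of the 3 epithelial pairs (0.23, 3.69 and 0.20) and below 0 in each of the 3 stromal pairs (-0.02, -0.07 and -1.70). The difference itself, stromal minus epithelial, was -1.95 ± 1.03 on the log2 scale (95% interval -4.36 to 0.46) and did not pass the test (adjusted p = 0.731 in edgeR's quasi-likelihood test). Epithelial pair 2 and stromal pair 3 held most of it, the same pairs in which the stromal fibroblast markers differed by 1.61 and -1.52, and 4 of the 6 ratios were within 0.23 of 0.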

How the results depend on the processing

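The reported count of members called was 0 in every treatment comparison and in every test of a treatment difference between cell types. Of the counts under the 8 alternative settings, 132 stayed within 1.5 times the reported count, or at 0 where it was 0. The 4 others were the comparison of cell types at 50 mM glucose without replicate 1, where 0 members and 0% of all genes were called, 1 ng/mL insulin against vehicle in stromal cells without replicate 3, where 1 was (CDH2, and 0.804% of all genes), and 10 against 1 ng/mL insulin with no filter on low counts, where 1 was called in stromal cells and 1 in the difference between cell types (both CDH2, and 0.871% and 1.58% of all genes). Leaving out 1 replicate at a time gave 0 to 11 members called in the comparison of cell types at 50 mM and 0 to 1 for 1 ng/mL insulin against vehicle in stromal cells. The cause was not tested. With no replicate block, 10, 10, 11, 10 and 9 members were called between cell types (vehicle, 1 ng/mL, 10 ng/mL, 5 mM and 50 mM, where 27.9%, 29%, 28.7%, 10.7% and 6.01% of all genes were called higher in stromal cells), and 0 members and 0% of all genes in each treatment comparison. The 2 missing at 50 mM were CDH2 and CDH11. Of the log2 fold changes of named members, 476 kept direction and call, 22 lost the call, 4 gained it and 2 turned direction. The 2 were CDH11 for 1 ng/mL insulin against vehicle in epithelial cells without replicate 3 (leaving out 1 replicate at a time gave -0.24 to 0.24) and SNAI2 for 10 against 1 ng/mL in epithelial cells without replicate 1 (-0.0012 to 0.22), both small values that were not called under any of the 8 settings. Depth limits TCF21 in epithelial cells, at 0 to 5 reads.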
